A study of Mus musculus with 6 samples.

Results

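The 10 genes for transcription factors of mesenchymal identity were followed through a demethylating drug treatment of mouse dermal fibroblasts: Prrx1, Prrx2, Twist1, Twist2, Snai1, Snai2, Zeb1, Zeb2, Tcf4 and Foxc2. Their members on the array were all probe sets annotated with 1 of these 10 symbols alone, which gave 28 of 45037 probe sets for 10 of 18193 named genes. None of the 932 probe sets annotated with several symbols carried a member's symbol. After a filter on dim signal 24 of the 28 were tested, at least 1 for each gene, and the other 4 (1 of Prrx1, 2 of Zeb1 and 1 of Zeb2) were too dim. Because the filter used the mean over all arrays, counts over the 24 do not speak for all 28.

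The arrays were Affymetrix mouse expression arrays hybridised with total RNA of cultured dermal fibroblasts of newborn mice (age 0 to 2 days), at passage 4, in 3 groups of 2. The labels derive the cells from crosses in which the males carried an X-linked GFP transgene, under a chicken β-actin promoter with a CMV enhancer, in a 129/ICR mixed background and the females were wild-type BL6, and, per the labels, heterozygous female cells had first been sorted for lack of GFP, which keeps those with the transgene on the inactive X chromosome. The control arrays are labelled as such cells with no drug and no second sort. For the treated arrays the cells took up 5-aza-2'-deoxycytidine (decitabine), which is built into DNA and traps DNA methyltransferases, at 4 μM for 48 hours, with 24 hours of recovery. A second sort then parted GFP-positive cells, whose silenced transgene had switched on, from GFP-negative cells, whose transgene stayed silent. Drug and further sort therefore cannot be told apart in comparisons with control. The study asked which genes respond to demethylation and whether sorting for GFP enriches the responding cells. For control replicate 2 the labels go against each other: its description names heterozygous females and the first sort, but its sex is given as mixed and it has no entry for sorting, while the other 5 are given as female. How its cells were collected is therefore not settled, and values without it stand beside some of the counts and differences below. Fits that take the replicate number as a block were not repeated without it, so calls made with the block have no such check. The labels call the replicates biological without naming separate animals or cultures, so the p-values cover the spread among these arrays alone, which may be technical.

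As background, these factors hold cells in, or move them toward, the mesenchymal state. Snail and Zeb proteins are zinc finger repressors that bind E-boxes in the promoters of epithelial genes. Twist proteins are basic helix-loop-helix factors that pair with E proteins such as the product of Tcf4, while Id proteins capture E proteins and block that pairing. Prrx1 and Prrx2 are paired-related homeobox factors of limb, facial and dermal mesenchyme, and Foxc2 is a forkhead factor of mesoderm.

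No promoter window of Snai2, Foxc2, Zeb1 or Tcf4 is reported here. Windows (RefSeq, GRCm38.p6, 250 bases before to 50 after a transcription start) of the other 6 of the 10 genes were used. Of these, 3 are shown because the drug acts on methylation at CpG and because they span the members' responses: Prrx1 and Twist1 were lower in both treated groups on their brightest probe sets, with no overlap with control, and the groups of Snai1 overlapped. Capitals mark each CpG. The Prrx1 window is chr1:163313601-163313900 (minus strand), the Twist1 window chr12:33957421-33957720 (plus strand) and the Snai1 window chr2:167537945-167538244 (plus strand).
Prrx1: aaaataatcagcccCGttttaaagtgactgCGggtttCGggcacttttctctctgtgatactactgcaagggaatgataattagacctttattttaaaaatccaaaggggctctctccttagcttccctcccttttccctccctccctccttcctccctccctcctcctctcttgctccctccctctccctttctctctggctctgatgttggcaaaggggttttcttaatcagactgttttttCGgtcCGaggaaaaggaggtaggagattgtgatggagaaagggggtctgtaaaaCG
Twist1: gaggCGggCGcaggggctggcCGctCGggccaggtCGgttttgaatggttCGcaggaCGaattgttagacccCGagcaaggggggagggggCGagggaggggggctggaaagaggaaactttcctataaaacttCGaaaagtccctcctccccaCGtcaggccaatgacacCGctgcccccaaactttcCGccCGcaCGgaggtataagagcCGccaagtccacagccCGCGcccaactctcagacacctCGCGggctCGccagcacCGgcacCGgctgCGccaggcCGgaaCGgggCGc
Snai1: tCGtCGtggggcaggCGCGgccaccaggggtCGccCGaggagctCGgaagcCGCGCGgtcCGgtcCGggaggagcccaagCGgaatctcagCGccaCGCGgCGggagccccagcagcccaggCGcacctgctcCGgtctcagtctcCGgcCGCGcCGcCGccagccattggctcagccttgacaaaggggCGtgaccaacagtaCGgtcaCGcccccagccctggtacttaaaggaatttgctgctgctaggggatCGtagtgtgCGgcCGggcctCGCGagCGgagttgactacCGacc
The Prrx1 window held 6 CpG, with a ratio of observed to expected CpG of 0.360, against a median of 7 CpG and a ratio of 0.384 over all 32851 windows. The Twist1 window held 27 CpG (ratio 0.827) and the Snai1 window 34 (0.925), more than 84.5% and 92.3% of all windows. Prrx2 (28) and Twist2 (25) were also above the upper quartile of 20, and the Zeb2 windows held 8 to 19. Methylation of these windows was not measured here, and members with few and with many CpG were both among those with lower signal. The letters CANNTG, the general E-box, were searched on both strands and found in 1 of the 9 windows of members, that of Snai1, where they read CAGGTG on 1 strand, against 72.3% of all windows. TAATTA, the core letters of many homeodomain sites, occurred in 1 of the 9, that of Prrx1, against 5.29% of all windows. The 9 are the windows of the 6 genes used here. Several are of Zeb2 and some of these overlap, so they are not independent promoters, and the shares were not tested.

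Signals are given after scaling each array to a 2% trimmed mean of 500, which multiplied GFP-negative replicate 2 by 8.06 and GFP-positive replicate 2 by 9.90 and left the others as deposited. Differences are on the scale of log2(signal + 30.6), an offset that shrinks the changes of dim probe sets, with the standard error (SE) of the limma fit. The arrays numbered 2 had lower quartiles of 19.2 to 22.6, against 38.7 to 42.6 for those numbered 1, in all 3 groups. For that reason differences within each replicate number are printed, and the fit with the replicate number as a block is named where it changes a call. The cultures carried all 8 fibroblast markers above the filter. Their summed signal was 164960 to 168487 on the control arrays, 127131 to 138672 on the GFP-negative and 127064 to 129976 on the GFP-positive arrays. In bulk RNA, fewer cells of a type and less RNA per cell cannot be told apart.

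Prrx1 was the only member whose 3 groups were all apart on the brightest probe set. On its brightest probe set the signal was 6275 and 6484 in control, 4131 and 3912 in GFP-negative and 3193 and 3110.0 in GFP-positive cells (replicates 1 and 2). No 2 groups overlapped, and the order was control, then GFP-negative, then GFP-positive within each replicate number. The group means were 6379.7 ± 148 in control, 4022 ± 155 in GFP-negative and 3152 ± 59.0 in GFP-positive cells (SD, n = 2), and the treated groups stood at 63.0% and 49.4% of control. Against control the difference of GFP-positive cells was -1.01 ± 0.19 (-0.97 within replicate 1 and -1.05 within replicate 2; limma adjusted p = 0.158, or 0.000808 with the block). That of GFP-negative cells was -0.66 ± 0.19 (-0.60 and -0.72; adjusted p = 0.609, or 0.0154 with the block). Both treated comparisons use the same control arrays.

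The other tested Prrx1 probe sets gave differences of -1.15 to -0.81 in GFP-positive and -0.85 to -0.49 in GFP-negative cells. All 5 were lower within both replicate numbers in both comparisons, and with the block all 5 passed in GFP-positive cells (adjusted p 0.000808 to 0.0189) and the brightest in GFP-negative cells. Control replicate 1 stood far above control replicate 2 on 3 of them, for example at 3322 against 1483 on the probe set with the largest difference. There the difference of GFP-positive cells was -1.60 within replicate 1 and -0.71 within replicate 2. Probe sets of 1 gene share their RNA and are not replicates. The untested Prrx1 probe set lay at 7.26 to 78.2.

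**Figure D1:**
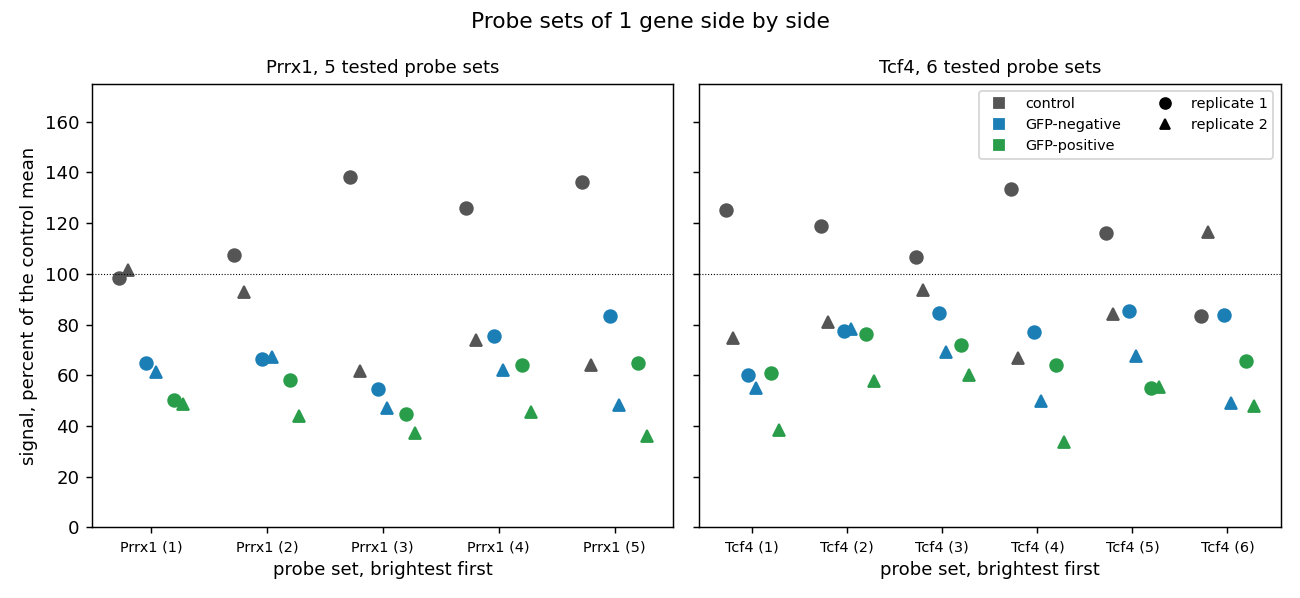
Signal of each tested probe set of Prrx1 (5, left) and Tcf4 (6, right) on the 6 arrays, as percent of the mean of the 2 control arrays (vertical axis, linear, dotted line at the control mean). Colours give the groups and shapes the replicate numbers. On the brightest Prrx1 probe set the 3 groups are apart, with treated means at 63.0% and 49.4% of control, while on others the control arrays themselves are far apart.

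Prrx2, the close relative of Prrx1, was not separated in the same way. Its only probe set had signals of 2806 and 1567 in control, 1071 and 2351 in GFP-negative and 1201 and 1491 in GFP-positive cells. Within replicate 1 both treated arrays were far below control (-1.36 and -1.20), but within replicate 2 GFP-negative cells were above it (0.58) and GFP-positive cells close to it (-0.07). Over both replicates the difference of GFP-positive cells was -0.64 ± 0.41 (limma adjusted p = 0.924, or 0.312 with the block) and that of GFP-negative cells -0.39 ± 0.41.

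Among the basic helix-loop-helix genes, Twist1 and Tcf4 had lower values in both treated groups. Twist1, a driver of mesenchymal fate in the embryo, had signals of 2248 and 1264 in control, 1158 and 851 in GFP-negative and 1016 and 804 in GFP-positive cells. Both treated groups lay below both control arrays but overlapped with each other. The difference of GFP-positive cells was -0.88 ± 0.33 (-1.12 and -0.63; limma adjusted p = 0.593, or 0.0136 with the block), and that of GFP-negative cells -0.75 ± 0.33 (-0.94 and -0.55; adjusted p = 0.992, or 0.0412 with the block). Without control replicate 1, the highest of the 6 arrays, the fitted difference of GFP-positive cells was -0.47 and that of GFP-negative cells -0.34.

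Twist2, the relative of Twist1 that marks dermal fibroblast precursors, had signals of 3904 and 4748 in control, 3248 and 4687 in GFP-negative and 3192 and 3731 in GFP-positive cells. The GFP-positive arrays lay below both controls by a small margin and the GFP-negative arrays overlapped with them. The differences were -0.32 ± 0.25 and -0.14 ± 0.25, and neither passed with the block (limma adjusted p = 0.215 and 0.677).

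Tcf4 encodes an E protein, the class of partner that Twist factors bind. On its brightest probe set its signal was 2338 and 1393 in control, 1118 and 1023 in GFP-negative and 1137 and 720.4 in GFP-positive cells. Both treated groups were below both controls and overlapped with each other. The difference of GFP-positive cells was -0.97 ± 0.33 (-1.02 and -0.92; limma adjusted p = 0.518, or 0.0104 with the block), and that of GFP-negative cells -0.74 ± 0.33 (-1.04 and -0.43; adjusted p = 0.998, or 0.0537 with the block). Without control replicate 1 these values were -0.60 and -0.37. All 6 Tcf4 probe sets were below 0 in both comparisons, from -0.98 to -0.55 in GFP-positive and from -0.74 to -0.33 in GFP-negative cells. With the block 2 of the 6 passed in GFP-positive cells, both at an adjusted p of 0.0104, and none in GFP-negative cells. On all 6 the GFP-positive arrays lay below both control arrays. Another Tcf4 probe set, not the brightest, had all 3 groups apart in the order seen for Prrx1. It had 1681 and 1144 in control, 1097 and 1104 in GFP-negative and 1078 and 815 in GFP-positive cells.

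The Snail genes, whose products repress E-cadherin, did not move in 1 direction. Snai1 had signals of 2049 and 944 in control, 1601 and 1268 in GFP-negative and 1720.2 and 981 in GFP-positive cells. The treated arrays lay between the 2 control arrays, and the differences were -0.10 ± 0.41 and 0.03 ± 0.41. Snai2, known as Slug, gave different pictures on its 2 probe sets. The brighter, of a type that can bind unrelated transcripts, had 3749 and 4853 in control, 2948 and 4019.7 in GFP-negative and 2741 and 3306 in GFP-positive cells, a difference of -0.50 ± 0.25 for GFP-positive cells (-0.45 and -0.55; limma adjusted p = 0.801, or 0.0481 with the block). The other stood at -0.02 ± 0.39 (-0.19 and 0.15), with 1512 and 711 in control against 1321 and 789.6 in GFP-positive cells, so the Snai2 value rests on the first probe set.

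The Zeb genes, repressors that act with the Snail factors on epithelial promoters, differed from control in unlike ways within the 2 replicate numbers. Zeb1 had 1629 and 2548 in control, 2287 and 2445 in GFP-negative and 2131 and 1647 in GFP-positive cells on its brightest probe set. The difference of GFP-positive cells was 0.38 within replicate 1 and -0.62 within replicate 2, or -0.12 ± 0.27 over both. Its other tested probe set stood at 0.15 ± 0.40. Zeb2 had 515 and 759.6 in control, 586 and 543 in GFP-negative and 512 and 419.6 in GFP-positive cells. The GFP-positive arrays lay just below both controls, and the difference was -0.41 ± 0.29, made of -0.01 within replicate 1 and -0.81 within replicate 2. The other 3 tested Zeb2 probe sets ranged from -0.33 to 0.27 with SEs of 0.53 to 0.65.

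Foxc2 was the only member whose brightest probe set was not below 0 in GFP-positive cells. Its signals were 584 and 751 in control, 737 and 892 in GFP-negative and 770.1 and 617 in GFP-positive cells. The groups overlapped, and the differences were 0.06 ± 0.27 and 0.28 ± 0.27.

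**Figure D2:**
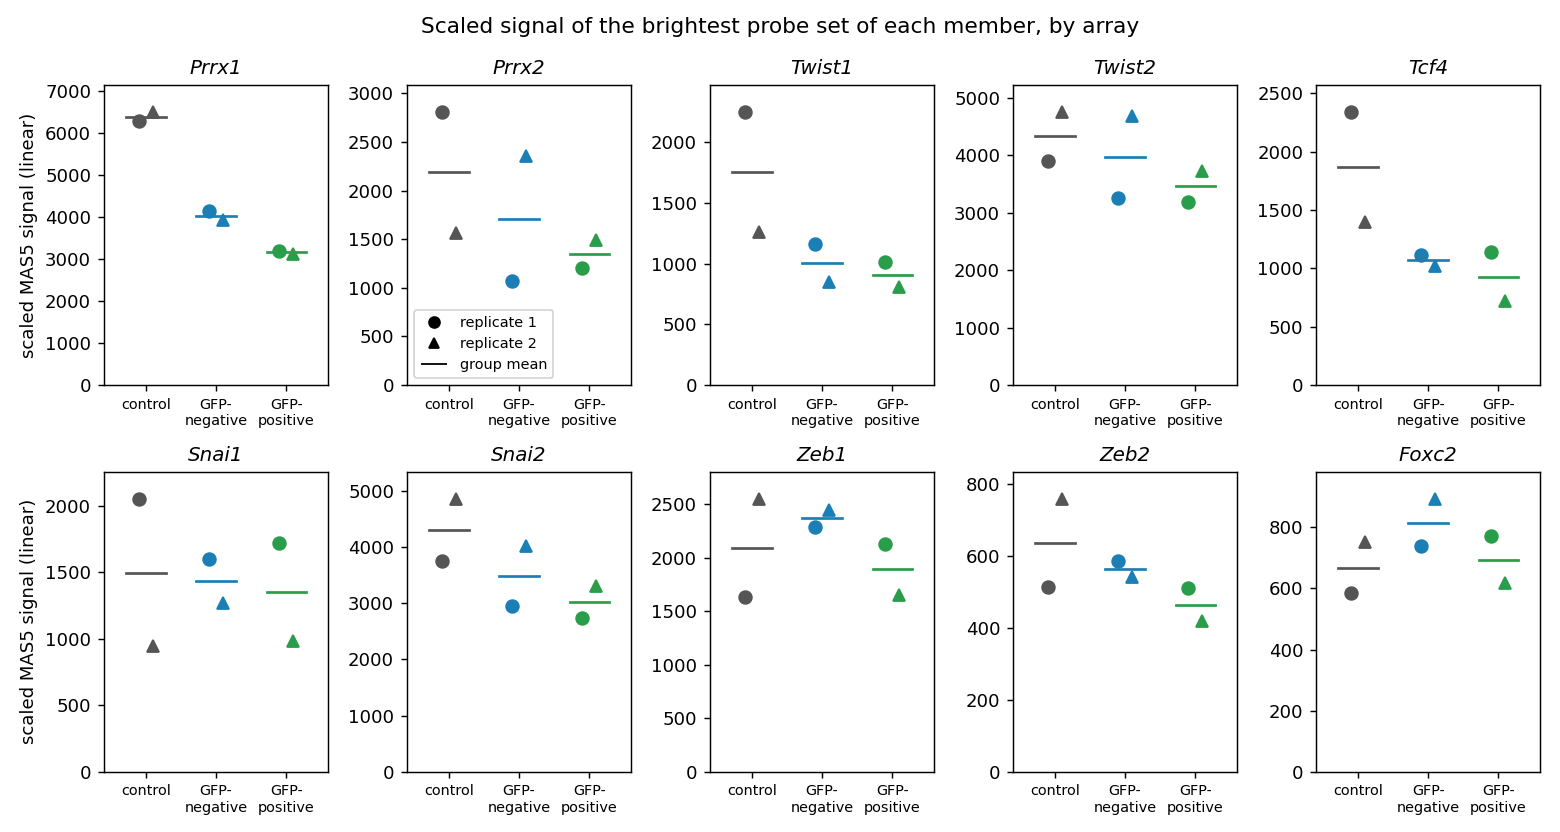
Scaled signal (vertical axes, linear and starting at 0) of the brightest probe set of each of the 10 genes on the 6 arrays, by group. Circles are replicate 1, triangles replicate 2 and lines the mean of 2 arrays. Prrx1 shows 3 separate levels with means from 6379.7 to 3152, Twist1 and Tcf4 have both treated groups below both controls, and the groups of Snai1, Zeb1 and Foxc2 overlap with control.

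Counted over the tested probe sets, 0 of 24 passed limma in GFP-positive against control cells, where 0.122% of all 27022 probe sets did. At an unadjusted p under 0.05 there were 8 of 24, all lower and all of Prrx1, Tcf4 and Twist1, against 3.43% of all probe sets that were lower at that level. With the replicate block 9 of 24 passed, all lower, against 3.06% of all: 5 of Prrx1, 2 of Tcf4 and 1 each of Twist1 and Snai2. With the block but no mean-variance trend 0 passed. The GFP-positive arrays lay below both control arrays on 15 of 24, against 14.9% of all probe sets, and above both on 0, against 17.3%. On 16 they were lower within both replicate numbers, against 28.5%, and 20 fitted differences were below 0, against 46.3%. The median difference was -0.57 over the 24 and -0.45 over the brightest probe set of each gene, against 0.04 over all probe sets. The 24 come from 10 genes, 11 of them from Prrx1 and Tcf4. Without control replicate 2, 0 of 24 passed limma and 20 differences were below 0, with Prrx1 at -0.99, Twist1 at -1.28 and Tcf4 at -1.34.

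In GFP-negative against control cells, 3 genes lay below both control arrays on their brightest probe sets, namely Prrx1, Twist1 and Tcf4, where in GFP-positive cells 7 did. The 7 include Prrx2, at -0.07 within replicate 2, and Zeb2, at -0.01 within replicate 1. The share of all genes counted in this way was not computed, and the difference between the 2 counts was not tested. Again, 0 of 24 passed limma (0.0296% of all did). At an unadjusted p under 0.05 there were 2, both of Prrx1, against 2.31% of all that were lower. With the block 2 passed, 1 of Prrx1 and that of Twist1, against 1.68% of all that were lower. The GFP-negative arrays lay below both controls on 7 of 24 (13.5% of all) and above both on 0 (15.1% of all). On 13 they were lower within both replicate numbers (26.8% of all), and 16 differences were below 0 (45.7% of all). The median difference was -0.34 over the 24 and 0.04 over all probe sets. Without control replicate 2, 0 of 24 passed limma and 19 were below 0, with Prrx1 at -0.64, Twist1 at -1.15 and Tcf4 at -1.11.

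**Figure D3:**
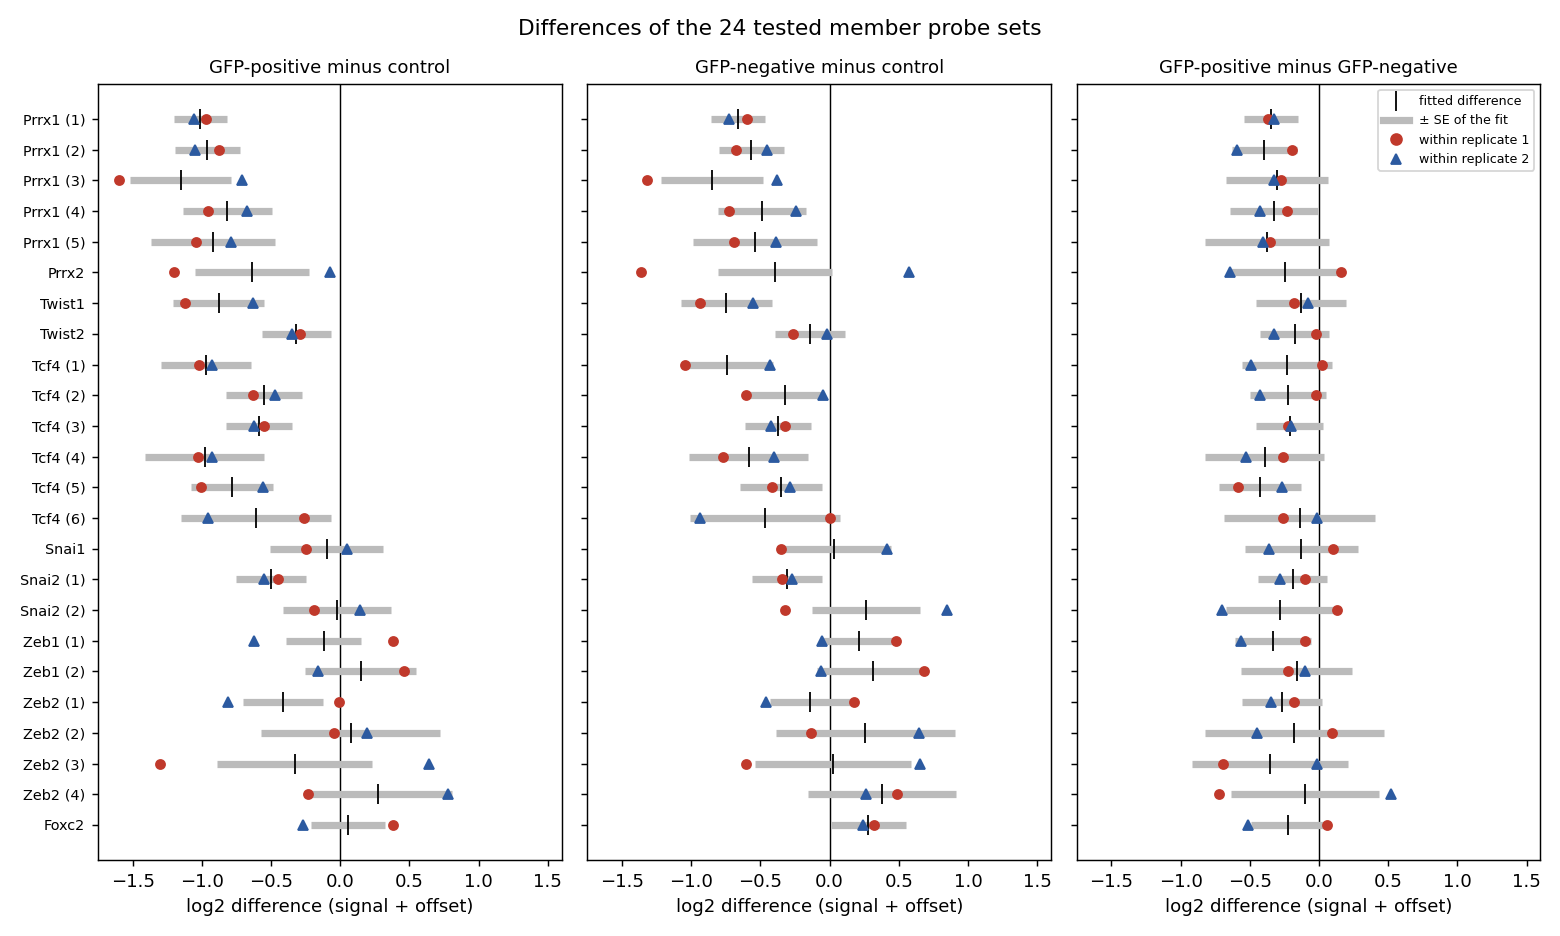
Log2 differences (horizontal axes) of the 24 tested probe sets for GFP-positive minus control, GFP-negative minus control and GFP-positive minus GFP-negative. Black ticks are fitted differences, grey bars ± SE, circles and triangles the differences within replicates 1 and 2, and probe sets of 1 gene are numbered from the brightest. All 5 Prrx1 and 6 Tcf4 ticks are left of 0 in each panel, and in the right panel all 24 ticks are left of 0 by 0.10 to 0.43.

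The direct comparison of the sorted fractions asks whether cells that reactivated the transgene differ from those that did not. All 24 tested probe sets were lower in GFP-positive than in GFP-negative cells, with differences from -0.43 to -0.10 and a median of -0.24, against 50.6% of all probe sets below 0 and a median of -0.00. None passed limma (0.0% of all did), and 0 were lower at an unadjusted p under 0.05, where 0.359% of all were. With the block 0 of 24 passed as well (0.0% of all). Within replicate 1, 18 of 24 were below 0 (50.9% of all), and within replicate 2, 23 of 24 (49.9% of all). Without GFP-positive replicate 2 the count was 15 of 24, and without GFP-negative replicate 1 it was 17. On 8 of 24 the GFP-positive arrays lay below both GFP-negative arrays, against 10.0% of all, and above both on 0, against 10.6%. On 17 they were lower within both replicate numbers, against 27.4%. Counted by gene on the brightest probe set, 6 of 10 were below 0 within replicate 1 and 10 of 10 within replicate 2. Within both, 6 of 10 were lower. Several probe sets of 1 gene thus add to the counts over the 24. The 8 probe sets below both GFP-negative arrays included 3 of Prrx1, 2 of Tcf4 and the brightest ones of Zeb1 and Zeb2. For Prrx1 the difference on the brightest probe set was -0.35 ± 0.19 (-0.37 and -0.33; adjusted p = 0.837 with the block). That for Zeb1 was -0.33 ± 0.27 and that for Zeb2 -0.27 ± 0.29. The lower values were not particular to the members: of 29 tested genes for other mesenchymal transcription factors, 24 were also lower in GFP-positive than in GFP-negative cells, with a median of -0.28, and 0 passed limma with or without the block.

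Genes around the members were described from lists, 1 probe set for each gene. Of the close relatives Tcf3, Tcf12 and Foxc1, none passed in either treated group with or without the block, and Snai3 was too dim. Tcf3 and Tcf12 encode the other E proteins, and their differences in GFP-positive cells were 0.08 ± 0.30 and 0.26 ± 0.29, where that of Tcf4 was -0.97. The difference between these genes was not tested.

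Among the 4 Id genes, whose products sequester E proteins, 3 were above 0 in both treated groups and 0 passed limma. Id2 had signals of 1739 and 711 in control, 2147 and 3489 in GFP-negative and 2318 and 5399 in GFP-positive cells. Its difference in GFP-positive cells was 1.64 ± 0.51 (0.41 within replicate 1 and 2.87 within replicate 2; limma adjusted p = 0.464, or 0.0418 with the block). Id1 stood at 1.02 ± 0.35 in GFP-positive (0.35 and 1.69; limma adjusted p = 0.0429 with the block) and 1.07 ± 0.35 in GFP-negative cells (0.44 and 1.69; 0.0494 with the block). Id4 went the other way, at -1.08 ± 0.46 and -0.95 ± 0.46, and did not pass.

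Of 12 co-repressor genes none passed limma, and with the block Ajuba, a LIM protein that binds Snail factors, passed in GFP-negative cells (0.68 ± 0.21, adjusted p = 0.0305). Ezh2, the methyltransferase of Polycomb repression, stood at 0.66 ± 0.26 and 0.54 ± 0.26 in GFP-positive and GFP-negative cells. Of 10 genes of the TGF-beta input, 0 passed limma. With the block the co-receptor Tgfbr3 passed in both treated groups, at -1.52 ± 0.53 (adjusted p = 0.00295) and -1.09 ± 0.53 (0.0260). The signalling receptor Tgfbr2 passed in GFP-positive cells (-0.54 ± 0.22, 0.0464) and the ligand Tgfb3 in GFP-negative cells (0.76 ± 0.40, 0.0320). Tgfb1, the ligand most used to induce mesenchymal change in culture, stood at 0.57 ± 0.48 and 0.58 ± 0.48. The ligand Tgfb2 stood at 0.06 ± 0.27 in GFP-positive and 0.78 ± 0.27 in GFP-negative cells (limma adjusted p = 0.0623 with the block in the latter). Between GFP-positive and GFP-negative cells its difference was -0.73 ± 0.27 (adjusted p = 0.725 with the block).

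Other mesenchymal transcription factors did not share 1 direction against control. Of 38 listed genes 29 were tested, 17 below and 12 above 0 in GFP-positive cells, with a median of -0.12 and 0 passing limma. Genes dim in control could enter these counts through the treated arrays, for example Lmx1b, at 20.3 and 9.60 in control. With the block 3 were lower, namely Osr1 (-2.18 ± 0.48, limma adjusted p = 0.00222), Tbx15 (-0.67 ± 0.23, 0.0317) and Klf4 (-0.67 ± 0.31, 0.0217), and Foxf1 was higher (1.15 ± 0.32, 0.0100). Of all probe sets, 3.06% were lower and 3.15% higher in that fit. Osr1, a zinc finger factor of connective tissue, had signals of 1265 and 1054 in control, 219 and 578 in GFP-negative and 159.6 and 330.5 in GFP-positive cells, with no overlap of treated arrays and controls. Foxf1, a forkhead factor of visceral mesenchyme, had 287 and 180.0 in control, 637 and 523 in GFP-negative and 608 and 484 in GFP-positive cells. In GFP-negative cells Osr1 (-1.60 ± 0.48) and Foxf1 (1.23 ± 0.32) passed with the block, where 1.68% of all probe sets were lower and 1.9% higher.

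Epithelial genes known to be repressed by Snail and Zeb factors were tested for 16 of 28, and the other 12 were too dim, among them Cdh1 (E-cadherin), Ocln, Esrp1, Ovol1 and Ovol2. Of the 16, 13 were above 0 in GFP-positive and 12 in GFP-negative cells, with medians of 0.77 and 0.53 against 0.04 over all probe sets. The filter used the mean over all arrays, so genes dim in control could enter through the treated arrays. Cldn4, for example, had 58.9 and 7.10 in control, 137 and 147 in GFP-negative and 176 and 138 in GFP-positive cells. These counts and medians are therefore in part set by the filter, and no rise of the list is drawn from them. The simple epithelial keratins Krt18 and Krt8 were the 2 that rose past the limma test, as earlier results of these data had shown. Krt18 had 211 and 249 in control, 2292 and 3341 in GFP-negative and 3026 and 4784 in GFP-positive cells, a difference of 3.89 ± 0.30 (adjusted p = 0.0125) and 3.43 ± 0.30 (0.0351). On its brightest probe set Krt8 stood at 3.55 ± 0.29 (0.0125) and 2.83 ± 0.29 (0.0427). Without 1 array 0 to 2 of these calls were made in GFP-positive cells, 0 without control replicate 1 or GFP-positive replicate 2, and 0 to 1 in GFP-negative cells. Median centring left 0 in GFP-negative cells. With the block the desmosomal Pkp2 and the keratin Krt19 also passed in both groups, at 0.78 ± 0.34 and 0.78 ± 0.54 in GFP-positive cells.

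Most, but not all, mesenchymal effector genes were below 0 in each treated group. Of 21 tested, 15 were below 0 in GFP-positive and 16 in GFP-negative cells, with medians of -0.33 and -0.24, and 0 passed limma. With the block 9 were lower and 1 higher in GFP-positive cells, and 7 lower and 1 higher in GFP-negative cells. Of all probe sets, 3.06% were lower and 3.15% higher with the block in GFP-positive cells. In GFP-negative cells these shares were 1.68% and 1.9%. The surface protease Fap had 1099.8 and 856 in control, 454 and 294 in GFP-negative and 369 and 122 in GFP-positive cells, a difference of -2.02 ± 0.47 and -1.33 ± 0.47. The proteoglycan Lum stood at -2.92 ± 0.73 and -3.25 ± 0.73, and the mesenchymal cadherin Cdh11 at -0.85 ± 0.22 and -0.71 ± 0.22. The integrin subunit Itga5 was the 1 that was higher with the block, at 0.80 ± 0.20 and 1.12 ± 0.20. Tnc (0.22 ± 0.26), Acta2 (0.19 ± 0.26), Vim (0.18 ± 0.25), Fn1 (0.13 ± 0.23) and S100a4 (0.12 ± 0.23) were also above 0 in GFP-positive cells. None of them passed with the block. All 8 fibroblast markers are on this list.

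**Figure D4:**
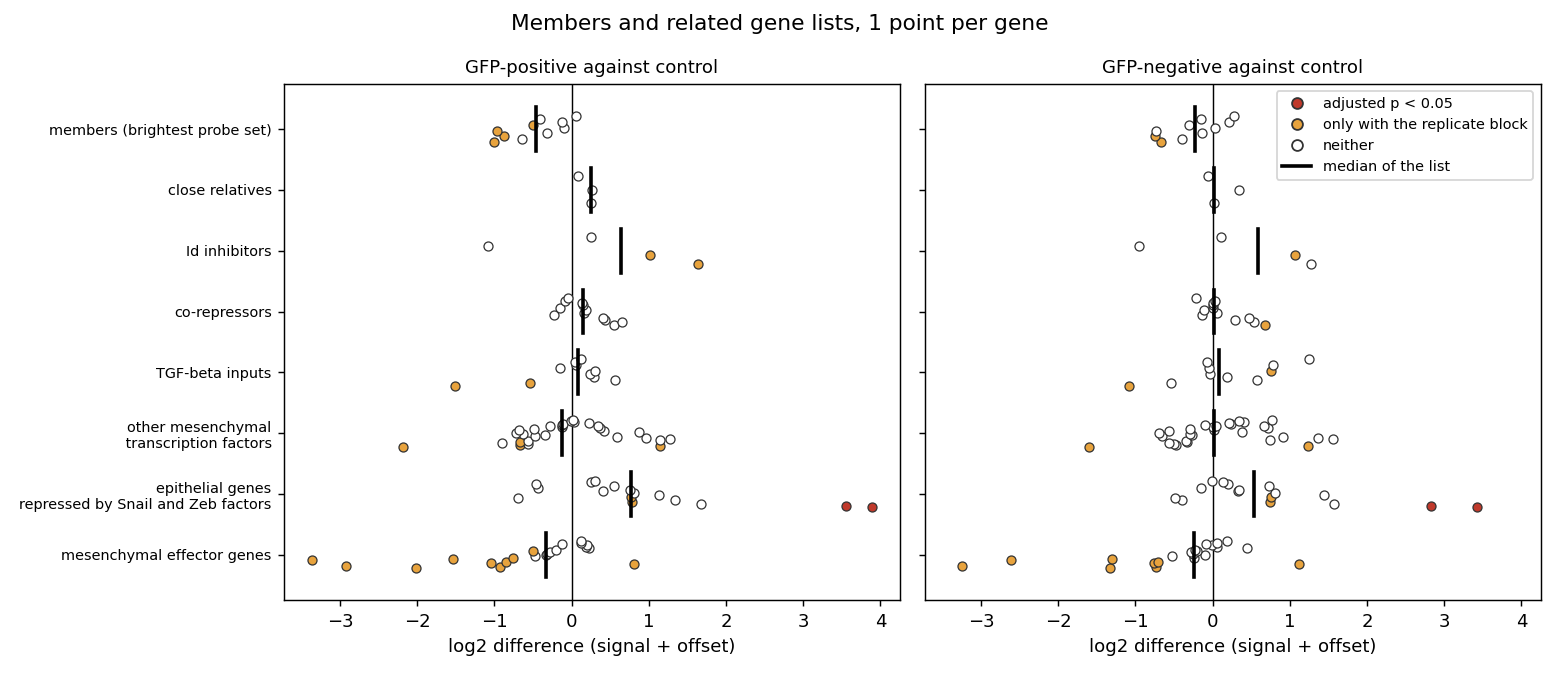
Log2 differences (horizontal axes) of the brightest probe set of each gene in the members and 7 related lists, GFP-positive against control (left) and GFP-negative against control (right). Red points passed limma at an adjusted p under 0.05, orange points passed with the replicate block only, and bars are medians over the genes of a row. The filter used the mean over all arrays, so epithelial genes dim in control could enter through the treated arrays. The medians of the members, at -0.45 and -0.23, and of the effector genes, at -0.33 and -0.24, lie left of 0, those of the epithelial genes, at 0.77 and 0.53, right of it, and only Krt8 and Krt18 are red.

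Markers of other cell types moved with the groups in part. The summed signal of 7 leukocyte markers was 682 to 1119 on control and 1344 to 1514 on treated arrays, with Ptprc, Cd3e and Cd79a below the filter. That of 7 skeletal muscle markers was 4496 to 9473 on control and 13104 to 16667 on treated arrays, most of it from Acta1 (4084 to 9193 and 12256 to 16264), with Myog, Myf5 and Myh3 below the filter. Des had 44.6 and 69.1 in control, 536 and 314 in GFP-negative and 224 and 391 in GFP-positive cells. Dim in control, it could enter the test through the treated arrays, so its test is in part set by the filter. Its difference was 1.92 ± 0.44 in GFP-positive and 2.35 ± 0.44 in GFP-negative cells. Des and Acta1 passed with the block in both, while Myod1 (-0.09 ± 0.76) and Ckm (-0.07 ± 0.87) were just below 0 in GFP-positive cells. The 4 Schwann cell markers on the array summed to 9065 to 11110.4 on control and 5409 to 8587 on treated arrays, most of it from Pmp22. Of 7 keratinocyte markers on the array Krt14 and Krt1 were below the filter, and the sums overlapped between the groups, at 593 to 1077 in control and 962 to 1400.2 in GFP-positive cells. Of the keratinocyte list only Sfn passed with the block, at 2.45 ± 0.72 in GFP-positive (limma adjusted p = 0.0175) and 2.11 ± 0.72 in GFP-negative cells (0.0492). Of its 5 tested markers, 2 were below 0 in GFP-positive cells. The sums for melanocytes and adipocytes also overlapped, while that of endothelial markers was 539.9 to 615 in control and 281 to 526 in treated cells. Pecam1 and Tie1 were below the filter, and of the 4 tested endothelial markers 0 passed limma with or without the block. In each treated group 3 of these 4 were below 0 and Kdr was above it (0.09 ± 0.45 in GFP-positive and 0.34 ± 0.45 in GFP-negative cells). The sum of smooth muscle and pericyte markers was 11448 to 17735 in control and 17781 to 21072 in treated cells, most of it from Actg2 (9374 to 15327 and 15740 to 18871). Of the 5 tested markers of that list, 3 were below 0 in GFP-positive cells, namely Rgs5 (-1.25 ± 0.48), Myh11 (-0.78 ± 0.51) and Notch3 (-0.20 ± 0.36), and 0 passed limma with or without the block. The part of these in the members' differences was not tested.

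Likeness of pattern was measured as the Pearson correlation over the 6 arrays, after taking out the mean of each replicate number, with 12480 other genes. For Prrx1 the most alike were Derl1 (r = 0.999) and Nsmce4a (0.998), but 387 genes had r above 0.95. Twist1 was nearest to Tmem64 and Maf, and Tcf4 to Tmem223 and Dram2, with 304 and 282 genes above 0.95. For Snai1 (Plppr2, Deaf1) and Zeb1 (Ccdc81, Ckm) 34 and 46 genes were above it. The 6 arrays share 2 replicate numbers and 3 groups, so many genes reach such values, and they are a description with no test.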

How the data were processed

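Signals of 6 arrays were analysed, 2 in each group, assigned per the labels. The deposited values were 1 MAS5 signal intensity per probe set on a linear scale, made by the authors per the submitters' processing notes. MAS5 version and parameters: not given in the sources used here. Of 45101 probe sets 64 controls were left out. Symbols came from GEO's platform annotation (34945 with 1 symbol, 932 with several, 9160 unnamed here).

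Signals were multiplied so that the 2% trimmed mean of an array was 500. Then log2 was taken after adding 30.6, which is the 25th percentile of signal at the median array. Probe sets with a mean signal at or above the 40th percentile (67.7) were kept, 27022 in all. R 4.3.3 and limma 3.58.1 fitted the 3 groups over 6 arrays (eBayes with a mean-variance trend, 3 residual degrees of freedom, two-sided, Benjamini-Hochberg over all kept probe sets, adjusted p under 0.05). The code was tested on simulated data. The number of arrays limits the precision.

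Replicate numbers, given in the sample titles, were taken as pairing the arrays: deviations from the group means of same-numbered arrays correlated at 0.506 to 0.556 across probe sets for the 3 pairs of groups. The fit with this number as a block was an alternative, with others for normalization, offset, filter, trend, probe sets, threshold and single arrays.

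Members and gene lists were chosen with earlier results of these data known. All members at each probe set were named, and of each list up to 4 genes of smallest p per comparison. Klf4 and Krt19 were named after their values were seen, because they passed with the block. Tnc, Acta2, Vim, Fn1 and S100a4 were also named after their values were seen, to list the effector genes above 0. Melanocyte, endothelial, adipocyte, Schwann, muscle, leukocyte, keratinocyte and fibroblast lists were used as markers. Coordinates are those of the RefSeq promoter table, and no array coordinates were used.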

Additional observations from a re-analysis of the deposited data

How the results depend on the processing

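Of 22 other settings, the count of members' probe sets past the test against control changed only under the replicate block with a mean-variance trend. In GFP-positive cells it was 9 with the block, 9 with the block and quantile normalization, and 11 with the block and an adjusted p under 0.1. In GFP-negative cells these counts were 2, 1 and 5. It was 0 under the remaining settings, the block without a trend included, and 0 under all 22 for GFP-positive against GFP-negative cells. The fits without 1 array were run without the block only, so they do not show whether the calls with the block hold. Of 24 probe sets below 0 in GFP-positive against GFP-negative cells, 15 to 24 were below 0 without 1 array, with the low of 15 without GFP-positive replicate 2. Against control 20 were below 0 in GFP-positive cells (18 to 23 without 1 array) and 16 in GFP-negative cells (16 to 19). The counts below 0, the block with an adjusted p under 0.1 and leaving out both rescaled arrays were chosen after seeing the data. Without both rescaled arrays there were 18, 16 and 18 probe sets below 0 in the 3 comparisons, and 62 and 49 calls over all probe sets.

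Over all probe sets, 33 calls in GFP-positive and 8 in GFP-negative cells became 1679 and 966 with the block, 0 and 0 without a trend, and 0 to 35 and 0 to 6 without 1 array (in GFP-positive cells 2 when control replicate 1 was left out and 0 when GFP-positive replicate 2 was). Median centring gave 31 and 4. Beside those named here and in the report, the block changed no call of a member. Of 597 recomputed member differences 31 changed sign, 21 of them in fits without 1 array, and none of these was past the test. The Prrx1 difference of GFP-positive cells lay between -1.04 and -0.97 over 20 settings, and that of Twist1 between -1.28 and -0.47. Among these settings the block, the trend and the filter cannot move a fitted difference, and the same holds within the 597. The cause of the changes in calls and differences was not tested. Dim probe sets and 2 arrays a group limit what could be detected.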
